A study of Mus musculus with 15 samples.

Results

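The H3K4me1 landscape of mouse embryonic stem cells (ESCs) was compared with that of the expanded potential stem cells called L-EPSCs, using every peak of the H3K4me1 list deposited for each state. The lists held 107222 peaks in ESCs and 105306 in L-EPSCs, that is 212528 of the 439369 peaks in the 6 lists of the series. The ESCs were the J1 line, of 129SV background, kept in 15% FBS with 1000 U/mL LIF, 3 µM CHIR99021 (a GSK3 inhibitor) and 1 µM PD0325901 (a MEK inhibitor). The L-EPSCs had been converted from these ESCs and received the same LIF, CHIR99021 and PD0325901, but 20% KSR in place of FBS, plus 0.3 µM A-419259 (a Src family inhibitor), 5 µM XAV939 (a tankyrase inhibitor), 4 µM JNK inhibitor VIII and 10 µM SB203580 (a p38 inhibitor). Either inactivated embryonic fibroblast feeders or gelatin served as substrate, and per the study's methods the EPSCs spent several passages without feeders ahead of ChIP-seq, whereas the substrate of the ESC samples is not given in the sources used here. The D-EPSC state, derived from the same ESCs, is quoted only as a side value at named loci. It was kept in 5% KSR with LIF, CHIR99021, dimethindene maleate and minocycline, without FBS and without the MEK inhibitor PD0325901. Each state had 2 H3K4me1 ChIP-seq samples and 1 input but a single peak list, without peak heights, so no spread between replicates could be computed. Every difference below therefore compares 1 list with 1 list and carries no test. A single line was studied, and read depth and the calling threshold of each list are not given in the sources used here.

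H3K4me1 is the monomethyl mark that MLL3 and MLL4 place at enhancers, whether active, primed or poised. Around active CpG island promoters it normally forms shoulders on either side of the start site, where trimethylation of the same lysine takes over. H3K27ac on the same element is the usual sign of activity. ESCs carry H3K4me1 over the enhancers of pluripotency genes and, with H3K27me3, around the promoters of developmental regulators that are held silent.

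Sequences from the mm9 assembly illustrate the main classes of sites. The first 3 are the central 240 bp, plus strand, of the widest distal region lost and the widest distal region gained with no peak of the other list within 10 kb, and of the distal region that widened most. Capitals mark any of the 9 motifs searched below, and only the lost region held one, an octamer (ATGCAAAT).
Lost, intron of Qk, chr17:10444423-10444662: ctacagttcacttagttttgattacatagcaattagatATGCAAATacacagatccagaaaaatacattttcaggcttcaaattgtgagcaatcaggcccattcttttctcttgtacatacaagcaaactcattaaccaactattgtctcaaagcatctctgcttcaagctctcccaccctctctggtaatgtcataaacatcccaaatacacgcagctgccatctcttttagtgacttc
Gained, intergenic with Qk nearest, chr17:10342770-10343009: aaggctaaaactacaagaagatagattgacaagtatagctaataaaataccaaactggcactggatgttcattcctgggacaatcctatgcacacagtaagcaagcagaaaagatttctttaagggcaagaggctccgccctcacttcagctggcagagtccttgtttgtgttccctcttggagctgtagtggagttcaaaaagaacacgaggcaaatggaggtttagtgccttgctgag
Widened, Enpp6, chr8:48143503-48143742: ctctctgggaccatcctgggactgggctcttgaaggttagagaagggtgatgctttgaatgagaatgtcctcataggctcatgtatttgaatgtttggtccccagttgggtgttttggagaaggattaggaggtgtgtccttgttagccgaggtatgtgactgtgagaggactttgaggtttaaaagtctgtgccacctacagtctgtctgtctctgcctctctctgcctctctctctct
The others run from 190 bp before the start site through the first 50 bp of the gene, on the coding strand, with CpG in capitals, and show start sites covered in L-EPSCs only. Mixl1 had no H3K4me1 within 2.5 kb in ESCs and a peak over the start site in L-EPSCs. Fgf5 had peaks on both sides in ESCs and one over the start site in L-EPSCs.
Mixl1, chr1:182627116-182627355, minus strand: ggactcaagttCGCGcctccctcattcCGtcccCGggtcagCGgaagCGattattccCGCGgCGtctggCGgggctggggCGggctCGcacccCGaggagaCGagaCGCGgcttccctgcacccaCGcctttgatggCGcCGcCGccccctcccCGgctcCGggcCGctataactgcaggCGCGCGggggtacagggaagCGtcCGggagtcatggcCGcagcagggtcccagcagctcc
Fgf5, chr5:98683013-98683252, plus strand: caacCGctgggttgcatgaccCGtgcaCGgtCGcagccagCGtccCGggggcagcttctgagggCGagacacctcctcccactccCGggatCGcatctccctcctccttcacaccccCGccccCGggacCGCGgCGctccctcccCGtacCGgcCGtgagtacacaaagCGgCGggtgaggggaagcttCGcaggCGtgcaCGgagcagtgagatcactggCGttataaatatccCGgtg
The Mixl1 window held 29 CpG and the Fgf5 window 24.

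Loss was mainly a distal event and concerned narrow peaks. Of the ESC peaks, 26609 (24.8%) had no overlap with an L-EPSC peak, and these lost peaks held 10.2% of the ESC covered bases. Only 429 of 15583 promoter peaks (2.75%), meaning peaks within 1 kb of a protein-coding start site, were lost, compared with 26180 of 91639 distal peaks (28.6%). Conversely, 20015 L-EPSC peaks (19%) had no ESC overlap, 2024 of 19060 at promoters (10.6%) and 17991 of 86246 at distal sites (20.9%). The share without a counterpart was lower the wider the peak, in both lists. It was 53.7% among ESC peaks under 500 bp, 19% at 1000 to 2000 bp and 0 of 2333 at 10 kb or more. In L-EPSCs it went from 46.2% under 500 bp to 0 of 958 at 10 kb or more. An overlap of 1 bp counted as a counterpart, which a wider peak meets more easily, so this trend is partly set by the rule.

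The ESC list covered 221.1 Mb and the L-EPSC list 173.1 Mb, so the balance of loss and gain depends on how the lists are equalised. When only the 44749 widest ESC peaks were kept to match the L-EPSC bases, 3359 of them (7.51%) were lost and 54133 L-EPSC peaks (51.4%) became gained. When instead every ESC peak was trimmed by 231 bp at both ends, 20185 (21.7%) were lost and 26358 (25%) gained. The excess of loss over gain was thus seen only in the lists as deposited. The lower share of loss at promoters was seen in each setting, since 0.684% of promoter peaks against 8.71% of distal ESC peaks were lost among the widest peaks, and 4.94% against 23.9% after trimming. The lower share of gain at promoters was not, with 51.3% of promoter and 51.4% of distal L-EPSC peaks gained against the widest ESC peaks, and 18.1% and 26.6% after trimming.

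Joining the overlapping peaks of both lists gave 119875 regions, which were sorted by covered bases into lost, narrowed (more than 1.5-fold fewer bases in L-EPSCs), kept, widened (more than 1.5-fold more) and gained. Among 19383 promoter regions, 429 (2.21%) were lost, 3330 (17.2%) narrowed, 10859 (56%) kept, 2741 (14.1%) widened and 2024 (10.4%) gained. Among 100492 distal regions, 26177 (26%) were lost, 19890 (19.8%) narrowed, 29605 (29.5%) kept, 6831 (6.8%) widened and 17989 (17.9%) gained. Narrowed regions accounted for more of the missing ESC bases than lost regions, holding 73.0 Mb in ESCs and 33.3 Mb in L-EPSCs, compared with 22.6 Mb in the lost regions. Trimming the ESC peaks to equal bases brought the widened share to 33.2% of promoter and 17.3% of distal regions, and the gained share to 17.8% and 24.3%.

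**Figure D1:**
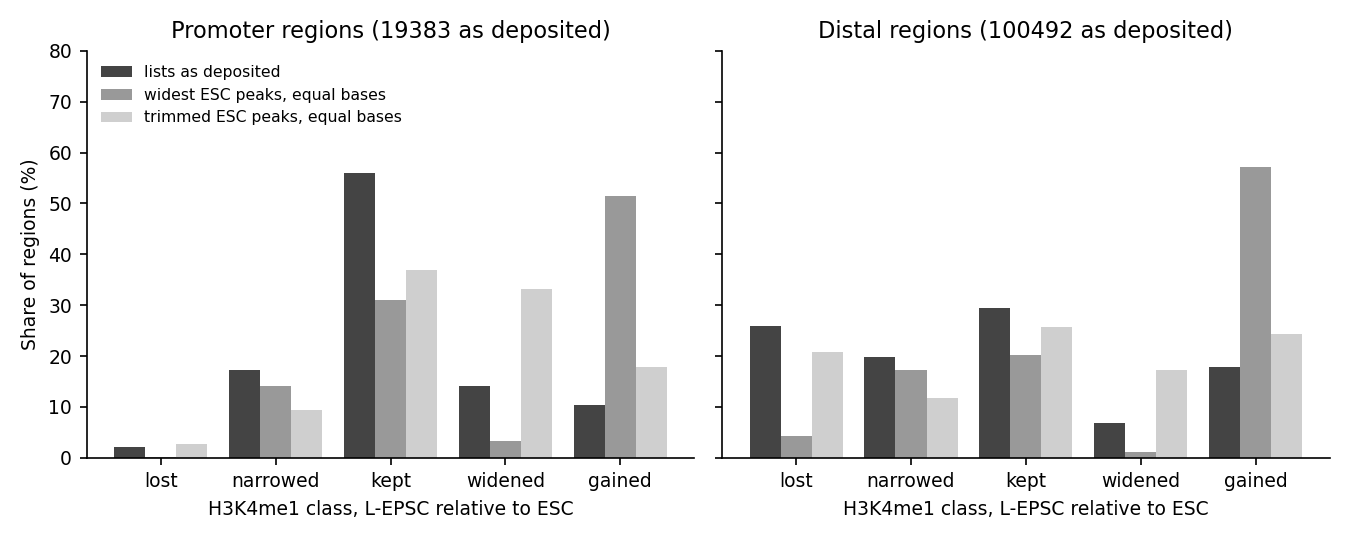
Share of union regions (y axis, percent) in each H3K4me1 class (x axis) for promoter regions (left) and distal regions (right); dark bars are the lists as deposited, and the paler bars show the widest ESC peaks and the trimmed ESC peaks at the bases of the L-EPSC list. Lost regions made up 2.21% of promoter and 26% of distal regions as deposited, and gained regions reached 51.5% and 57.1% when the widest ESC peaks alone were kept.

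The widest distal losses lay in introns or outside protein-coding genes, and the genes named with them shared no evident function. With no L-EPSC peak within 10 kb, the widest was 7735 bp in an intron of Qk, an RNA-binding protein gene, at chr17:10440676-10448410, its D-EPSC coverage 0 bp and its H3K27ac 0 bp in ESCs. It was followed by 6390 bp lying 27306 bp from the start site of Sema7a (a semaphorin) at chr9:57815226-57821615 and 5823 bp in an intron of Cxadr (a tight junction adhesion protein) at chr16:78313276-78319098. Next came 5123 bp at chr5:111452792-111457914, far from any start site, with that of the checkpoint kinase gene Chek2 nearest at 183756 bp. Last were 4998 bp in an intron of Chd9, a chromatin remodeller, at chr8:93444979-93449976. D-EPSC coverage at these 4 was 543, 2509, 610 and 4964 bp, so the Chd9 site was nearly whole there. In all, 4297 distal losses were isolated in this way.

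Of all 17989 distal gained regions, with a median width of 527 bp, 972 (5.4%) carried H3K27ac in L-EPSCs. The widest isolated distal gains were all outside protein-coding genes, and all 5 carried it. The leading one spanned 6812 bp at chr17:10339484-10346295, on the same side of the Qk start site as the lost intronic peak but beyond the gene. It held 3882 bp of H3K27ac in L-EPSCs and 0 bp in ESCs, and 0 bp of H3K4me1 in D-EPSCs. The next were 5695 bp at chr13:11362998-11368692 with the calcium channel gene Ryr2 nearest, 5038 bp at chr4:4480060-4485097 with Impad1, 4778 bp at chr14:41261148-41265925 with Sh2d4b and 4747 bp at chr1:111222553-111227299 with the cadherin gene Cdh7, at 235405 to 830520 bp from those start sites. Their H3K27ac covered 3045 to 4488 bp in L-EPSCs and 0 to 2243 bp in ESCs. The isolated distal gains numbered 8817.

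Distal narrowing took bases mainly from the ends of ESC peaks. In the 19521 narrowed distal regions made of 1 ESC peak, the outermost 10% of the width was covered in L-EPSCs to 15.3% on average, and the 10% next to the middle to 64.2%. Lower coverage at the ends was not particular to narrowing. In the 27240 kept distal regions made of 1 ESC peak the values were 56.3% and 94.9%. In 15.1% of the narrowed ones the ESC peak was broken into 2 or more L-EPSC peaks. The largest difference was in an intron of Ror2, a receptor tyrosine kinase for Wnt5a. Its 75807 bp ESC peak at chr13:53247762-53323568 was left as 16 L-EPSC peaks with 39904 bp, and its H3K27ac went from 54951 to 8821 bp. A second intronic Ror2 region went from 23645 to 1078 bp. Among the next were Qk, from 43343 to 17652 bp and 1551 bp from the start site, and Unc5b (a netrin receptor), from 32506 to 11163 bp.

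Promoter narrowing had another shape. In the 3057 narrowed promoter regions with 1 ESC peak, the middle was the least covered in L-EPSCs, at 30.03%, against 44.4% in the outermost 10%. That value is a mean over both ends of each peak, without regard to the start site. Whether both ends or only 1 kept the mark was therefore not measured. Of these regions, 29.5% were broken into 2 or more peaks. In Rere, a transcriptional corepressor gene, at chr4:149656412-149692088, 34486 bp in ESCs were left as 11479 bp in 6 L-EPSC peaks, and 11570 bp of H3K27ac as 0 bp. Ppp6r3 (a PP6 phosphatase subunit) went from 50784 to 27863 bp, Ube2d2 (a ubiquitin-conjugating enzyme) from 22376 to 2518 bp, Cobl (an actin nucleator) from 39485 to 21785 bp and Pou2f3 (a POU factor) from 26625 to 9437 bp. Only the Pou2f3 region reached its start site. The others lay 657 bp (Rere), 680 bp (Ppp6r3), 865 bp (Ube2d2) and 917 bp (Cobl) from theirs. The Rere start site was flanked on both sides in both states.

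At most of the regions that widened most, 2 or more ESC peaks stood where L-EPSCs had 1. An Enpp6 region at chr8:48137215-48150031, around a choline phosphodiesterase gene, went from 2002 bp in 2 ESC peaks to 12817 bp in 1 L-EPSC peak, and its H3K27ac from 696 to 12817 bp, while D-EPSCs had 3956 bp of H3K4me1. An intronic region of Abat, which encodes GABA transaminase, went from 8158 to 18607 bp. The region nearest BC067074 went from 1714 to 11084 bp, that of Cybb (an NADPH oxidase subunit) from 1572 to 10658 bp and that of Gm17697 from 8064 to 17104 bp. At promoters the 5 were Gm17352 (5275 to 13473 bp), Ly6a, which encodes the surface antigen Sca-1 (5293 to 12695 bp), Fgf1, a fibroblast growth factor (8178 to 14618 bp), A830080D01Rik (6715 to 12660 bp) and Sult2a3, a sulfotransferase (3289 to 9058 bp). H3K27ac at the Fgf1 region went from 2391 to 12395 bp.

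The widest gained promoters included developmental regulators. Among the widest without ESC peaks within 10 kb were those of Nkx2-1, a lung, thyroid and forebrain factor (3709 bp, chr12:57633894-57637602, 293 bp from the start site), Adamts1, a secreted metalloproteinase (3522 bp), Cacna2d3, a calcium channel subunit (3210 bp), and Dach1, a developmental transcription cofactor (3081 bp). None of them overlapped H3K27ac in either state, and D-EPSCs had 1782 to 3246 bp of H3K4me1 at these 4. There were 883 such gained promoters against 33 lost ones. The 5 widest lost promoters were narrow, from 967 bp at Cd96 to 1805 bp at Gm8074, with Adam18, Htr2b and Sptlc3 between them.

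More start sites lay under H3K4me1 in L-EPSCs. Over 22350 protein-coding start sites, 2544 (11.4%) lay under a peak in ESCs and 7097 (31.8%) in L-EPSCs. Of all start sites, 4955 (22.2%) were covered in L-EPSCs only and 402 (1.8%) in ESCs only. Those with peaks on both sides within 2.5 kb but none on top went from 9358 (41.9%) to 7136 (31.9%), and 2998 of the 9358 (32%) became covered. The shares were 38.8% of the 3020 start sites flanked on one side and 10.6% of the 7428 with no peak within 2.5 kb. At the 6180 start sites flanked on both sides in both lists, the median gap between the flanking peaks was 1811.5 bp in ESCs (quartiles 1472.75 and 2233 bp) and 974.5 bp in L-EPSCs (774 and 1249.25 bp). A peak within 1 kb was present in L-EPSCs only at 2737 start sites (12.2%) and in ESCs only at 388 (1.74%). The ESC list, although the longer one, had fewer covered start sites. At equal bases it had 1681 with the widest peaks and 1920 after trimming. Both equal-base lists are parts of the ESC list, so these counts could only fall.

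The shares varied with the CpG content and acetylation of the promoter. CpG-rich start sites here have, in the surrounding 1 kb, at least 50% GC and a CpG observed over expected ratio of at least 0.6. Of 9882 CpG-rich start sites, 3.2% were covered in ESCs and 31.5% in L-EPSCs, and 4 were covered in ESCs only. The 12468 CpG-poor start sites went from 17.9% to 32%. Among the 3569 CpG-rich start sites without H3K27ac within 1 kb in either state, covered ones went from 7.59% to 57%, with 49.5% covered in L-EPSCs only. Among the 4517 CpG-rich start sites with H3K27ac in both states they went from 0.398% to 14.1%. CpG-poor start sites acetylated in both states had 32.5% covered in ESCs and 71.7% in L-EPSCs.

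In the average profile the shoulders stood closer to the start site in L-EPSCs. At CpG-rich start sites acetylated in both states, coverage was highest 1300 bp upstream and 1900 bp downstream in ESCs (67.7% and 79.5% of start sites), and 700 bp upstream and 1300 bp downstream in L-EPSCs (78.7% and 87.9%). At CpG-rich start sites without acetylation, the highest points were at 800 and 1200 bp in ESCs (43.2% and 53.1%) and at 400 and 700 bp in L-EPSCs (70.3% and 80.3%). Farther than 2 kb from the start site the ESC curve lay above the L-EPSC curve in each set.

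**Figure D2:**
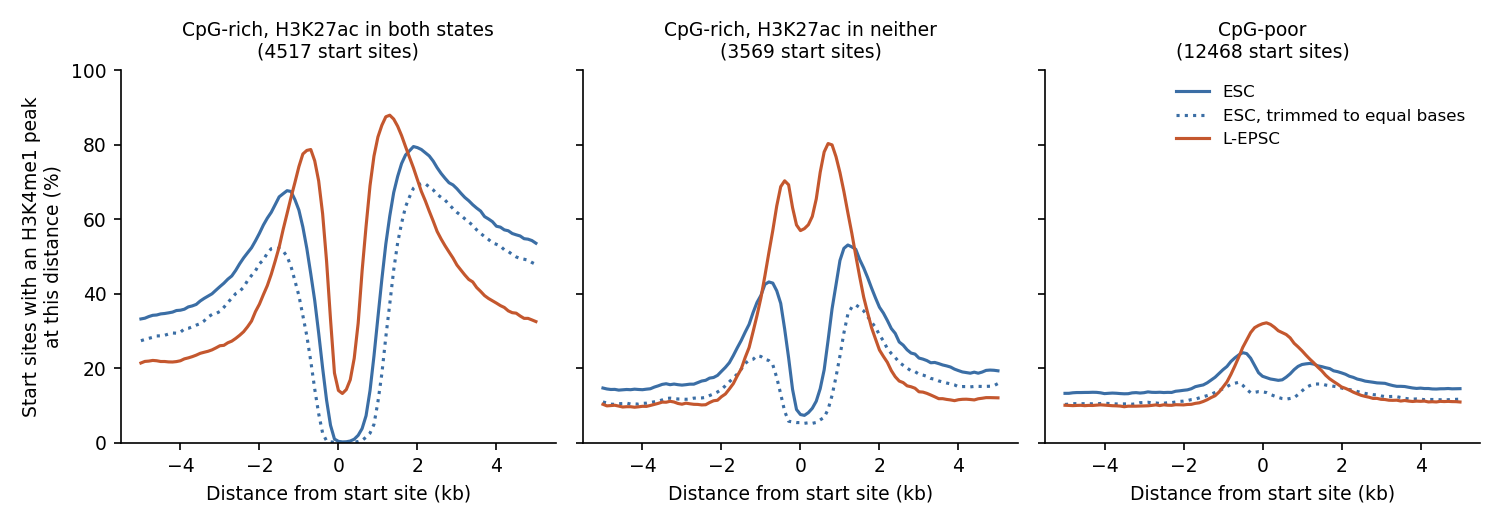
Share of start sites with an H3K4me1 peak (y axis, percent) by distance from the start site in kb, upstream negative, for CpG-rich start sites with H3K27ac in both states, CpG-rich ones with H3K27ac in neither, and CpG-poor ones; solid blue is ESC, dotted blue ESC trimmed to equal bases and orange L-EPSC. In both CpG-rich panels the dip over the start site is narrower in L-EPSCs, and in the middle panel coverage at the start site is 57% in L-EPSCs and 7.59% in ESCs, while the CpG-poor L-EPSC curve has no dip.

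Gene loci were then compared by the bases under peaks within the gene and 10 kb on either side. A locus was counted as different with at least a 2-fold difference and 2 kb covered in the higher list. Fewer covered bases in L-EPSCs were found at 1861 of 22350 loci (8.33%) and more at 1011 (4.52%). With the widest ESC peaks at equal bases the numbers were 762 (3.41%) and 3589 (16.1%), and with trimmed peaks 646 (2.89%) and 2827 (12.6%), so the more frequent direction differed between the deposited lists and those at equal bases. Of 234 genes in the lists below, 230 were matched. The locus counts of those lists are to be read beside these shares of all loci.

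All 5 pluripotent marker loci carried H3K4me1 in both states. Coverage of this size was not limited to pluripotency genes, as Gata3 of the trophoblast list had 21.4 kb in ESCs and 18.7 kb in L-EPSCs. Pou5f1 had 19.7 kb covered in ESCs and 21.9 kb in L-EPSCs, Sox2 15.2 and 17.3 kb, Nanog 14.2 and 18.1 kb, Esrrb 79.5 and 85.6 kb and Zfp42 18.2 and 21.2 kb, each slightly wider in L-EPSCs. The Pou5f1 and Nanog start sites, flanked on one side in ESCs, were covered in L-EPSCs. Of 13 naive pluripotency genes, none passed the 2-fold limit. By any amount, 8 had fewer and 5 more bases, beside 12095 and 6513 of all 22350 loci. In this list 3 start sites became covered, those of Prdm14, Nr0b1 and Tfap2c, beside 22.2% of all start sites. Tfcp2l1, a transcription factor of that network, had 47.5 kb in ESCs and 28.1 kb in L-EPSCs. Nr5a2, a nuclear receptor of the naive network, had 60.0 kb in ESCs and 40.0 kb in L-EPSCs, and its start site was the one of this list covered in ESCs only.

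Of 9 DNA methylation loci, 3 had at least 2-fold fewer bases and 1 more, beside 8.33% and 4.52% of all loci. With the widest ESC peaks at equal bases 2 had fewer and 1 more, beside 3.41% and 16.1% of all loci. Uhrf1, which directs maintenance methylation to replicated DNA, had 30.4 kb in ESCs and 11.4 kb in L-EPSCs. The de novo methyltransferase gene Dnmt3b had 11.7 and 4.38 kb, and its start site stayed flanked. Mettl4, a methyltransferase-like gene, had 6.77 and 3.28 kb, and did not pass at equal bases, unlike Uhrf1 and Dnmt3b. Tet3, a 5-methylcytosine dioxygenase, differed the other way, with 5.00 kb and 10.1 kb, and its start site became covered. Dnmt3l, a cofactor of de novo methylation, had 21.3 and 12.3 kb, short of the limit, and lost the peak over its start site. In D-EPSCs the Dnmt3b locus had 13.1 kb and Uhrf1 13.1 kb.

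Several feedback genes of the Wnt pathway also had fewer bases. Of 14 Wnt target and tankyrase loci, 4 had fewer bases and 1 more, beside 8.33% and 4.52% of all loci. The summed coverage of the list was 315.8 kb in ESCs and 175.2 kb in L-EPSCs. Znrf3, a ubiquitin ligase that removes Wnt receptors, had 76.0 kb in ESCs and 26.97 kb in L-EPSCs. Axin2, the scaffold of the destruction complex and a direct target, had 26.7 and 7.44 kb, Rnf43 (the partner of Znrf3) 25.4 and 11.1 kb and the homeobox gene Cdx1 23.3 and 9.34 kb. Nkd1, with 1.25 and 2.95 kb, was the one gene with at least 2-fold more, and Lgr5 (3.97 and 6.50 kb), Sp5, T and Dkk1 were also higher by some amount. With the widest ESC peaks at equal bases, 3 of the 14 loci had fewer and 4 had more bases, beside 3.41% and 16.1% of all loci. D-EPSCs had 55.7, 15.4, 15.7 and 9.56 kb at the first 4. The tankyrase genes Tnks (69.7 and 38.9 kb) and Tnks2 (18.5 and 9.53 kb) were short of the limit. After trimming, Znrf3, Axin2 and Cdx1 still passed the limit and Rnf43 did not.

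The ERK target list had 2 of 13 loci with fewer bases and none with more, beside 8.33% and 4.52% of all loci. The ETS factor gene Etv4 had 22.6 kb in ESCs and 8.46 kb in L-EPSCs, against 21.8 kb in D-EPSCs. Spred1, an inhibitor of RAS signalling, had 15.3 and 7.19 kb, and 26.2 kb in D-EPSCs, and unlike Etv4 did not pass at equal bases. Start sites of Dusp6, Ier3 and Etv4 became covered. Of the AP-1, JNK and p38 genes, 6 of 12 start sites became covered, among them Fosl2, Junb and Atf3. Of these 12 genes 11 are CpG-rich, and the share was 22.2% over all start sites and 28.3% over CpG-rich ones. Jun itself had 1.88 kb in ESCs and 4.14 kb in L-EPSCs, the only locus of that list past the limit. Of the 15 Src family and YAP-TEAD genes, Tead4 (46.0 and 18.9 kb) and Yes1 (24.5 and 11.3 kb) had fewer bases and Blk (0 and 3.46 kb) more. These counts stand beside 8.33% and 4.52% of all loci, and Yes1 did not pass at equal bases. Src had 50.7 and 34.004 kb and its start site became covered.

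Primitive endoderm genes mostly had more covered bases in L-EPSCs. At 4 of 12 loci coverage was at least 2-fold higher in L-EPSCs and at none 2-fold lower, beside 4.52% and 8.33% of all loci. By any amount, 11 of 12 were higher, beside 6513 of all 22350 loci. Col4a1, a basement membrane collagen of parietal endoderm, had 8.23 kb in ESCs and 23.8 kb in L-EPSCs, with H3K27ac from 0.724 to 4.03 kb. Gata6, the lineage-defining factor, had 3.59 and 8.53 kb and its start site became covered. Sox7 had 2.15 and 4.48 kb and Dab2, an endocytic adaptor, 0.409 and 3.16 kb. H3K27ac was 0 in both states at Gata6, Sox7 and Dab2. Lama1 was the one gene that was lower, at 29.8 and 20.2 kb, with H3K27ac from 12.6 kb to 0. Its start site became covered, whereas those of Sox17 and Pdgfra were covered in ESCs only. In D-EPSCs Gata6 had 8.56 kb and Col4a1 10.4 kb. Col4a2 (13.3 and 24.2 kb) adjoins Col4a1, so their loci share bases.

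Trophoblast genes had 2 of 13 loci lower (Krt8, 12.1 and 5.75 kb, and its neighbour Krt18, 6.36 and 2.82 kb), 1 higher (Esx1, 0 and 3.81 kb) and 10 lower by any amount. Over all 22350 loci, 8.33% were 2-fold lower, 4.52% were 2-fold higher and 12095 were lower by any amount. Neither Krt8 nor Krt18 passed at equal bases. Still, 6 of their 13 start sites became covered, including Tfap2a, Eomes and Gata2, and Cdx2 (13.4 and 10.6 kb) was covered in both states. Gastrulation genes had no locus past the limit and 9 of 14 start sites newly covered, among them Nodal, Tdgf1, Mesp1 and Eomes, so that 13 of 14 were covered in L-EPSCs. Of 7 neural genes, 5 start sites became covered, among them Pou3f2, Neurog2, Olig2 and Nes. The formative and primed epiblast list had 6 of 14 newly covered, with Fgf5 at 1.22 and 2.54 kb and Lef1 at 17.1 and 14.8 kb, against 42.5 kb in D-EPSCs. These shares stand beside 22.2% for all start sites, 28.3% for CpG-rich and 17.3% for CpG-poor ones. They were 49.5% for CpG-rich ones without H3K27ac and 41.3% for CpG-poor ones with H3K27ac in both states. CpG-rich start sites were 6 of 13 in the trophoblast, 7 of 14 in the gastrulation, 6 of 7 in the neural and 10 of 14 in the epiblast list.

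Among metabolic loci, 3 of 16 glycolysis genes passed the limit, all with fewer bases, beside 8.33% of all loci. None of 13 matched sterol and fatty acid genes did. By any amount, 14 of the 16 glycolysis genes had fewer bases, beside 12095 of all 22350 loci and 7 of 8 housekeeping genes. The 3 past the limit were Ldha (21.1 and 10.2 kb), Pfkm (31.8 and 15.3 kb) and Pgam1 (8.99 and 4.01 kb). Of the 16 start sites, 9 became covered, among them Hk2, Slc2a3 and Gapdh. Newly covered were 22.2% of all start sites, 28.3% of CpG-rich ones and 4 of 8 in the housekeeping list. After trimming, none of the 3 loci passed the limit, and with the widest ESC peaks at equal bases only Ldha did. Of the 13 sterol and fatty acid genes, 12 had fewer bases by any amount and 4 start sites became covered (Scd2, Srebf1, Lss and Dhcr7). In the LIF-STAT3 list no locus passed, 3 of 9 start sites became covered (Socs3, Bcl3 and Junb) and the start site of Il6st, the common receptor chain, was covered in ESCs only. The same shares of start sites stand beside the sterol and LIF-STAT3 counts.

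Retinoid genes had 1 locus lower and 1 higher of 16, beside 8.33% and 4.52% of all loci. The receptor gene Rxra had 24.6 kb in ESCs and 10.48 kb in L-EPSCs, without passing at equal bases, and Rarb 5.27 and 14.6 kb. Of 11 germline genes, Stk31 (3.92 and 8.57 kb) and Ddx4 (1.37 and 2.86 kb) were higher, Tex101 (3.74 and 1.499 kb) was lower, though not at equal bases, and 5 start sites became covered. The 4 two-cell genes matched had at most 0.651 kb in either state. Among 8 housekeeping genes Hprt was lower (3.55 and 1.20 kb) and 4 start sites became covered. The germline and housekeeping start site counts stand beside 22.2% of all start sites and 28.3% of CpG-rich ones. Their locus counts stand beside 8.33% lower and 4.52% higher among all loci.

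Fibroblast genes, checked because the substrate of the ESC samples is not given while the EPSCs were feeder-free by then, summed to 64.2 kb in ESCs and 47.6 kb in L-EPSCs over 13 genes. Pdgfrb had 18.99 and 6.21 kb, whereas Fbn1 (3.02 and 6.91 kb) and Twist1 (2.05 and 4.30 kb) were higher, Lum and Dcn were at 0 in both lists and Postn went from 1.85 kb to 0. No fibroblast start site became covered. The part of any feeder cells among the ESCs in the differences above was not tested.

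**Figure D3:**
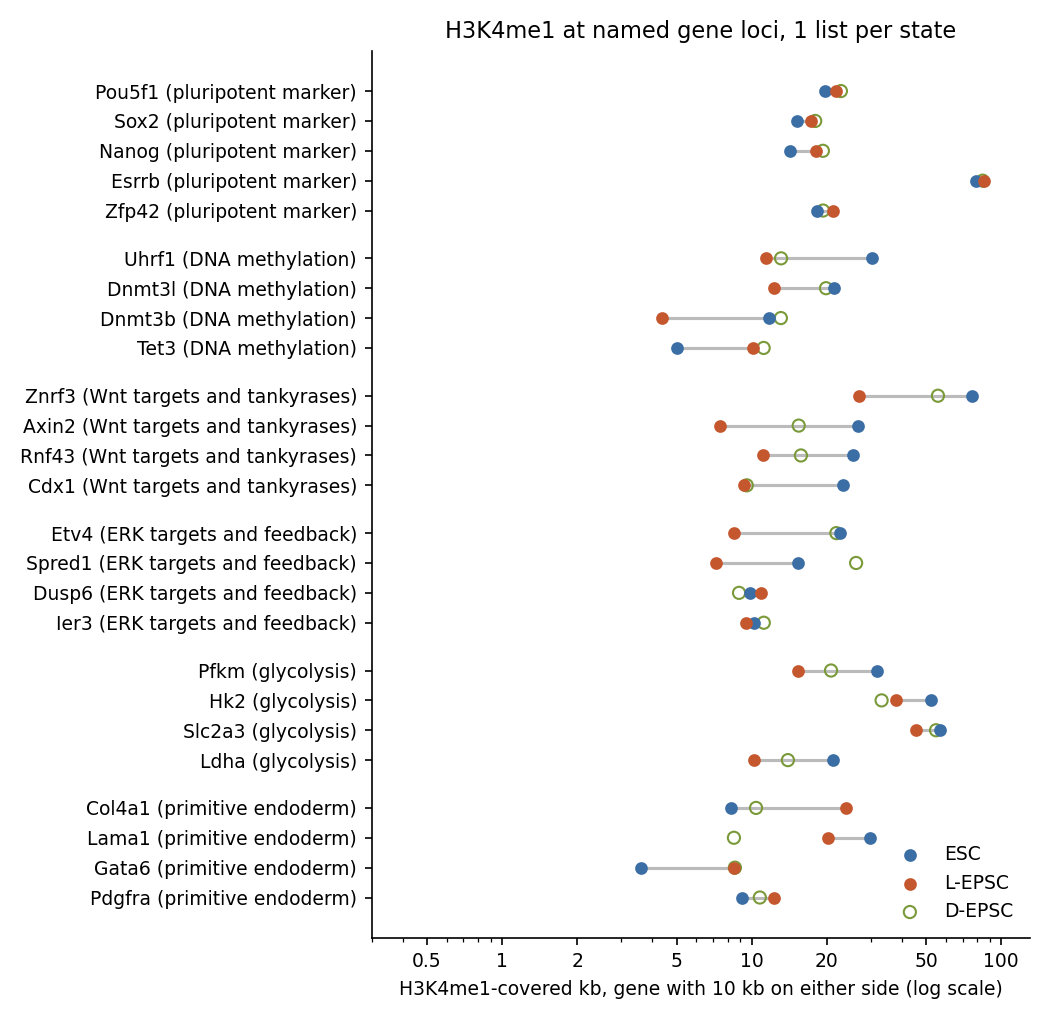
H3K4me1-covered bases in kb (x axis, log scale) at the 5 pluripotent marker loci and at the loci named from 5 gene lists, with 1 list per state and so no error bars; blue points are ESC, orange L-EPSC and open green D-EPSC. The pluripotent markers lie close together in all 3 states, whereas L-EPSC points lie left of ESC at Uhrf1, Dnmt3b, Znrf3 and Axin2 and right of it at Col4a1 and Gata6.

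Ranked by bases and not by ratio, the largest losses were long genes. Rere had 255.3 kb covered in ESCs and 86.8 kb in L-EPSCs, with H3K27ac from 128.7 to 7.81 kb, and Ror2 had 147.4 and 58.4 kb. Ntn1, which encodes the guidance molecule netrin-1, had 96.9 and 29.2 kb with H3K27ac from 41.5 kb to 0, and Fmnl2, a formin, 117.0 and 49.8 kb. These 4 also passed the 2-fold limit at equal bases by either method. Msi2 and Rbfox2, both RNA-binding proteins, Dym and Dst did not reach it. The models of Gm20388 and Fgfr2 span 4455 and 3029 kb in the annotation with their flanks, and are not read as single loci. On the side of more bases, Stox2 led with 48.0 and 83.9 kb, short of 2-fold. Ctdspl (a phosphatase) had 26.1 and 53.4 kb, Enpp6 7.43 and 32.7 kb and Prmt8 (an arginine methyltransferase) 8.64 and 27.8 kb, all past the limit, while D-EPSCs had 30.9, 8.97 and 8.83 kb. Zbtb7c, Zfp423, Zfp521, Cuedc1, Lrrc1 and Abat completed the 10.

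Of 20 genes that the study discusses, Fgf10 (21.0 kb in ESCs, 5.26 kb in L-EPSCs, with H3K27ac from 23.5 kb to 0) and Zmym2 (25.6 and 12.1 kb) had 2-fold fewer bases, Zmym2 not at equal bases. None had 2-fold more, and the shares of all loci were 8.33% with fewer and 4.52% with more. At Eya1, a transcription cofactor of organ development, coverage was 30.5 and 16.2 kb, and at Fgf3 17.6 and 9.65 kb. Kat6b, a histone acetyltransferase, had 142.0 and 102.1 kb, Arid5b 129.7 and 95.4 kb, Trim2 61.4 and 49.8 kb, Hk2 52.3 and 37.7 kb and Zfp281 16.7 and 9.13 kb. Rara had 52.5 and 44.9 kb, Lefty1 17.7 and 13.2 kb, Lin28a 13.3 and 12.1 kb and Tfap2c 20.0 and 19.4 kb. Higher in L-EPSCs were Dnmt3a (31.6 and 37.3 kb), Utf1 (13.6 and 15.9 kb), Eif4a2 (9.81 and 14.7 kb), Esrrb (values above) and Dusp6 (9.82 and 10.9 kb). Of these 20, 8 start sites became covered and 1, that of Nr5a2, was no longer so, beside 22.2% and 1.8% of all start sites.

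H3K27ac, which was not used to form the classes, differed between them. The share counts any overlap with a region, and region widths differed between classes. Median distal widths were 659 bp in lost, 2079 bp in narrowed, 1806 bp in kept, 1442 bp in widened and 527 bp in gained regions. The part of width in the shares was not tested. The ESC H3K27ac list is far longer (107.4 Mb against 34.3 Mb in L-EPSCs), so shares between states are read together with the ESC list trimmed to equal bases. Of distal lost regions, 20.9% overlapped H3K27ac in ESCs (1.32% after trimming) and 0.802% in L-EPSCs. Of distal narrowed regions, 53.9% did so in ESCs (14.4% trimmed) and 10.5% in L-EPSCs, and of distal kept regions 48.4% (16.3%) and 25.3%. Distal widened regions had 24.2% (3.62%) and 21.5%, and distal gained regions 5.7% (0.189%) and 5.4%. In the lists as deposited the ESC share was the higher one in each of these distal classes. Against the trimmed list, acetylation was more frequent in ESCs at lost and narrowed distal regions and in L-EPSCs at kept, widened and gained ones. That trim took 1157 bp from each end of every ESC H3K27ac peak. Their median width was 892 bp, so most ESC peaks were removed whole, while short L-EPSC peaks stayed. With the widest ESC H3K27ac peaks in place of trimmed ones the ESC share of distal narrowed regions was 4.44%, below that of L-EPSCs, and that of lost regions was 1.02%. Gained promoters overlapped H3K27ac in 12% in ESCs (0.741% trimmed) and 8.25% in L-EPSCs, and most gains in either place carried none.

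**Figure D4:**
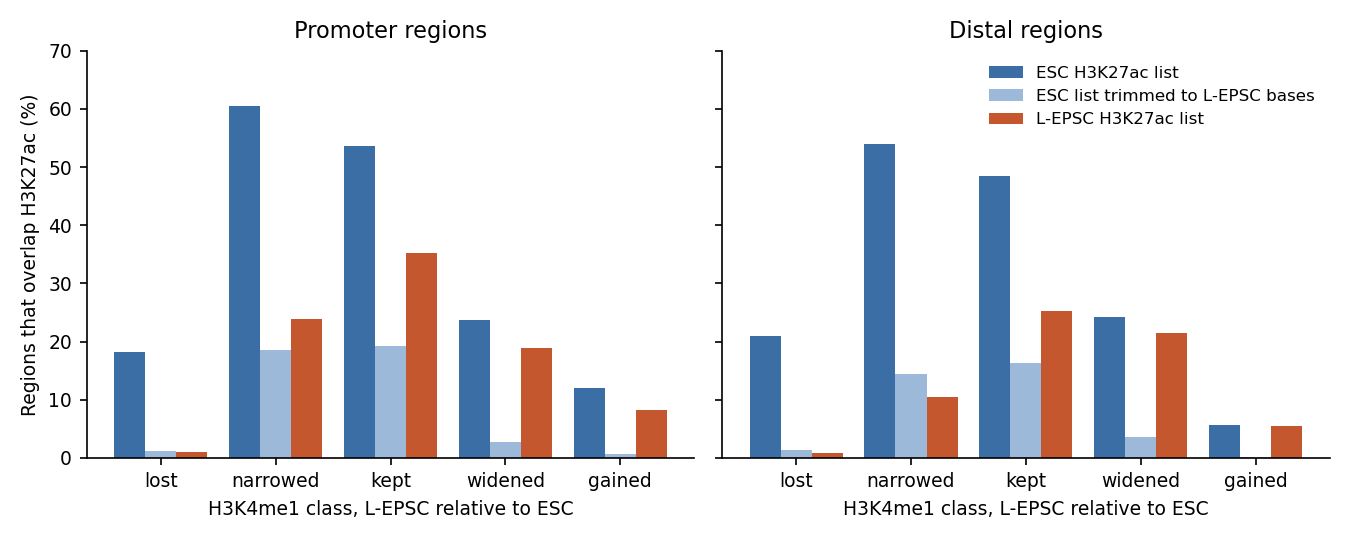
Share of promoter (left) and distal (right) regions of each H3K4me1 class that overlap H3K27ac (y axis, percent) in the ESC list, the ESC list trimmed to the bases of the L-EPSC list, and the L-EPSC list. L-EPSC shares run from 0.802% of distal lost to 25.3% of distal kept regions, and from 0.932% of promoter lost to 35.3% of promoter kept regions.

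By sequence, the classes at promoters differed more than those at distal sites. In the central 500 bp the median CpG observed over expected ratio was 0.51 in widened and 0.48 in gained promoter regions, compared with 0.23 in lost, 0.21 in narrowed and 0.26 in kept ones, and the median GC content was 54.2%, 53.3%, 47.8%, 44.8% and 46.2% in the same order. At distal regions the ratio ran only from 0.21 in lost to 0.25 in gained, and GC from 46.4% to 48%. Motifs were searched on both strands as exact letters: TCAAGGTCA (ESRRB), ATGCAAAT (octamer), ACAATGG (SOX), TGANTCA (AP-1), ACATTCC (TEAD), GCCNNNGGC (TFAP2), GGGTGTGGC (KLF), ATCAAAG (TCF/LEF) and AGGTCA (nuclear receptor site, contained in the ESRRB letters). In distal regions the TCF/LEF letters were found in 9.68% of lost, 8.81% of narrowed, 7.72% of kept, 7.71% of widened and 7.23% of gained regions, beside 8.36% of all distal regions and 10.1% of 500 bp windows of the genome. The TFAP2 letters ran the other way, in 10.6% of lost, 11.7% of narrowed, 13.6% of kept, 15.2% of widened and 15.5% of gained distal regions, beside 12.9% of all and 6.54% of genome windows. The SOX letters were in 7.61% of lost and 9.34% of gained regions. The ESRRB (3.11% and 2.75%), octamer (4.3% and 4.35%), KLF (2.87% and 3.16%), AP-1 (14.3% and 15.5%), TEAD (7.29% and 8.43%) and nuclear receptor (33.9% and 34.4%) letters differed little between lost and gained. The part of base composition in these shares was not tested, and a match of letters is not a bound site.

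In the deposited lists, chromosome X as a whole and the 1 Mb windows without a start site as a group had more H3K4me1 in L-EPSCs. Chromosome and window values are given for these lists only, not at equal bases, and the ESC list covered 221.1 Mb against 173.1 Mb. X was the only chromosome with more covered bases, 1.98 Mb in ESCs and 2.14 Mb in L-EPSCs, and 35.8% of its regions were gained, compared with 11.7% to 20.4% on the autosomes. Lost regions were 23.6% on X and 19.7% to 25.1% elsewhere. The X share of covered bases differed by 0.46 on the log2 scale and its share of peaks by 0.22. In 1 Mb windows without a start site, covered bases went from 1.87 to 2.39 Mb in total (log2 ratio 0.35), and in the 294 windows with 20 or more start sites from 61.0 to 44.4 Mb (log2 ratio -0.46). Of 2529 windows, 1502 had fewer bases in L-EPSCs and 1027 had more, so many single windows with start sites were also higher. Among the 1464 windows with 1 to 9 start sites, 780 were lower. The window with the largest difference, chr4:149000001-150000000, holds Rere, Eno1 and Pik3cd and had 570.5 kb in ESCs, 287.9 kb in L-EPSCs and 337.7 kb in D-EPSCs. On the other side, chr16:9000001-10000000, with the NMDA receptor gene Grin2a as its one start site, had 121.1, 169.1 and 127.7 kb.

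**Figure D5:**
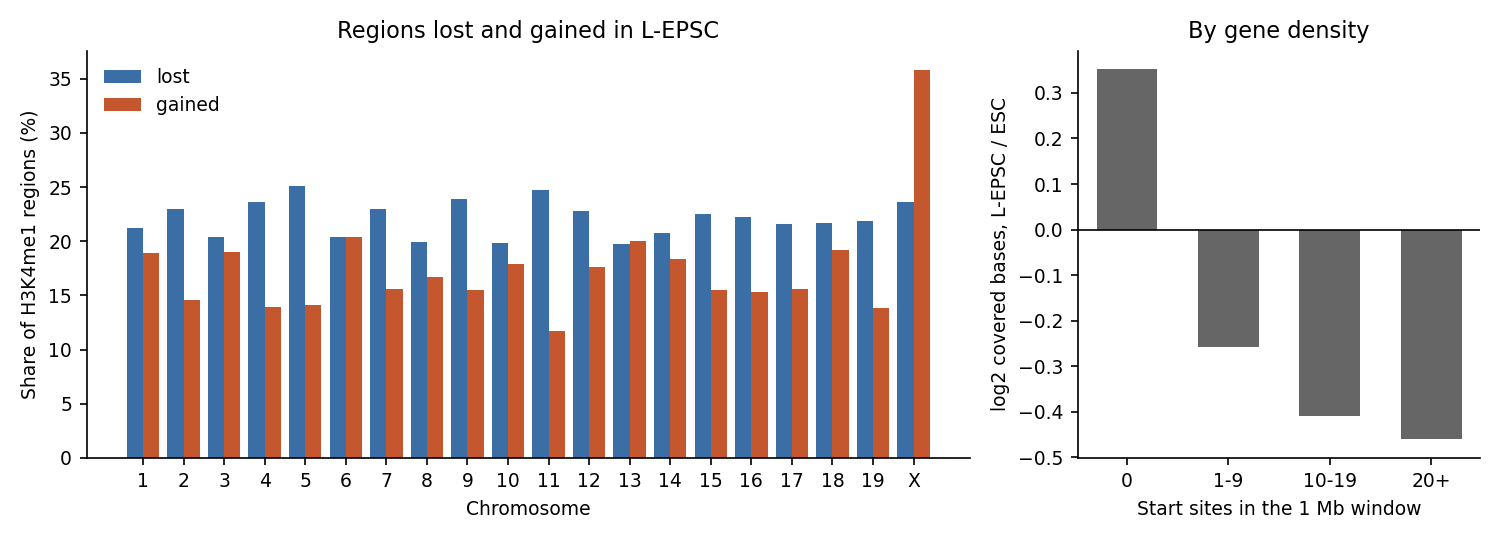
Left, share of H3K4me1 regions lost (blue) and gained (orange) in L-EPSCs (y axis, percent) by chromosome; right, log2 ratio of covered bases, L-EPSC over ESC, in 1 Mb windows grouped by their number of start sites. Gained regions reach 35.8% on X, and the log2 ratio goes from 0.35 without start sites to -0.46 with 20 or more.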

How the data were processed

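H3K4me1 ChIP-seq was done by the authors with antibody ab8895 in 2 samples per state, and H3K27ac likewise. Per the labels and the study's methods, reads were trimmed (Trim Galore 0.6.3, cutadapt), aligned to mm9 with Bowtie2 2.3.5, handled with SAMtools 1.10 and called as broad MACS peaks against input. The deposited lists hold chromosome, start and end of each peak, without signal or score. How the 2 samples were combined and the calling threshold are not given in the sources used here, so no interval or depth can be attached, and wide peaks may merge or split with depth.

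From these positions, overlaps (1 bp), covered bases, start site states and locus sums were computed with Python 3.11.15 and NumPy 2.4.6, drawn with matplotlib 3.10.9, and checked on simulated lists. Protein-coding genes and start sites were those of GENCODE M1, and sequence was NCBIM37, the mm9 assembly. Members, lists and motifs were chosen with earlier results of these data known. Named from each gene list are those with a changed locus or start site, up to 4 by size, and further genes of a list were named after their values were seen. Regions named come from the 5 widest or most changed per class, and a few items are not reported here. Alternatives covered overlap, width, equal bases, distances and fold limits. One, H3K27ac trimmed to equal bases, was added after seeing the data.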

Additional observations from a re-analysis of the deposited data

How the results depend on the processing

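No paired analysis was possible because each state has 1 peak list and no result comes from a test. The limits are the single list per state, the unknown depth and threshold, and the longer ESC lists of both marks. Over 23 counts and ratios, 75 of 125 alternative values were within 1.5 times of the main value and 50 were not. Counts cannot change sign, but the balance of lost and gained peaks and of loci with fewer and more bases turned at equal bases, to 20185 lost against 26358 gained peaks after trimming, with the other values below. The cause was not tested, except that equal bases shorten the ESC list by construction. Requiring 50% of both peaks to overlap left 63305 ESC and 61389 L-EPSC peaks without a counterpart, and could not be applied to joined regions, where it was not run.

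With the widest ESC peaks at equal bases, 3359 ESC peaks were lost and 54133 L-EPSC peaks gained. Promoter regions were then lost in 46, kept in 5875, widened in 610 and gained in 9770 cases, and distal regions lost in 3313, kept in 15685, widened in 942 and gained in 44363. Start sites covered in ESCs only numbered 225, those flanked in ESCs and covered in L-EPSCs 815, and loci with fewer and more bases 762 and 3589. With trimmed ESC peaks, promoter regions were narrowed in 1816, kept in 7198, widened in 6442 and gained in 3455 cases, and distal regions narrowed in 11172 and widened in 16295. Start sites covered in ESCs only then numbered 234, and loci with fewer and more bases 646 and 2827.

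Lost promoter regions were 241 with regions joined over 1 kb, 285 with promoters within 500 bp and 1099 within 2500 bp, and narrowed ones 2085 within 500 bp. With peaks of at least 500 bp, 4297 distal regions widened. At a 2-fold limit, 1425 promoter and 11348 distal regions were narrowed, and 1404 and 3458 widened. Counting any transcript start, 745 were covered in ESCs only, and with flanks of 1 kb, 1978 flanked start sites became covered. Loci with fewer bases were 1233 with 50 kb on either side, and at 1.5-fold 4955 had fewer and 1740 more.

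Distal regions with ESC H3K27ac, at equal bases by the widest H3K27ac peaks, were 268 lost, 883 narrowed, 2062 kept, 71 widened and 41 gained. By trimmed peaks, an alternative chosen after seeing the data, they were 346, 2860, 4826, 247 and 34. The log2 ratio of the chromosome X share was 0.22 by numbers of peaks.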
